A study of Mus musculus with 2 samples.

Results

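Activated conventional CD4 T cells were taken here by their transcripts: cells with a CD3 and a Cd4 transcript, none of Cd8a, Cd8b1, Foxp3 or the B cell genes Cd79a, Ms4a1 and Ebf1, at most 1 unique molecular identifier (UMI, 1 counted transcript) of Krt8 and Krt18 together and at most 1 of Lyz2, under 2 of Ifit1 and Ifit3 together, and at least 2 UMIs over Tnfrsf4, Icos, Ctla4 and Pdcd1 together. The sum over these last 4 genes is called the activation sum. The rule took 356 of 32976 cells that passed the filters, 158 of 17108 in the vehicle library and 198 of 15868 in the RP-6306 library. The cells came from tumours of RM-1, a mouse prostate cancer line, implanted subcutaneously in C57BL/6 mice labelled WT in both groups. Tumours were taken at day 10 after treatment with vehicle or with RP-6306, which inhibits the cell cycle kinase PKMYT1. Sorted CD45+ cells were mixed with tumour cells in a ratio of 3 to 1, so shares of all cells were set in part by the mixing. Each treatment had 1 library, and tissue from 2 grafted mice is named for the study without saying that each library is 1 of them. No test between treatments was possible, and every interval given here covers counting error only.

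CD4 T cells recognise peptides on MHC class II molecules and steer other immune cells with cytokines and contact signals. Once activated they place Icos and Tnfrsf4 (OX40), which are costimulatory receptors, and Ctla4 and Pdcd1 (PD-1), which restrain the response, on their surface. Conventional CD4 T cells include naive, helper and memory cells, while regulatory T cells are defined by the transcription factor Foxp3 and suppress responses. Regulatory T cells carry high Ctla4, Icos and Tnfrsf4 as well, in tumours above all.

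The members held 543200 UMIs in the vehicle library and 635835 in the RP-6306 library, with medians of 3168 and 2695 UMIs per cell. Their median mitochondrial share was 0.755% and 0.932%. The full libraries held 135415063 and 158073632 UMIs over 17313 and 15909 barcodes, and 374 barcode sequences occurred in both, among them those of 5 vehicle and 3 RP-6306 members. Tumour, B cell, myeloid and erythroid markers were low in the members. The 12 tumour markers summed to 125 CPM (UMIs of a gene scaled to a library total of 1000000 UMIs) in vehicle and 53.5 CPM in RP-6306 members (8 and 6 of 12 detected, with Krt7, Cdh5, Cldn4 and Cldn7 at 0 in both), against 1222 and 988 CPM in cells of a tumour gate. The 11 B cell markers summed to 271 and 225 CPM, against 15662 and 18651 CPM in a B cell gate. The 13 myeloid markers summed to 127 and 94.4 CPM with Csf1r and Adgre1 at 0, and the 6 erythroid and platelet markers were at 0 in both libraries. Natural killer cell markers, 8 and 9 of 9 detected, summed to 46.0 and 138 CPM, against 33.3 and 16.6 CPM at an activation sum of 0. Of 8 gamma delta T cell markers 1 and 2 were detected, at 1 and 2 UMIs in all. Lists for NKT and MAIT cells summed to 182 and 72.3 CPM, against 45.8 and 43.4 CPM at a sum of 0, and for innate lymphoid cells to 131 and 70.8 CPM, against 26.0 and 30.6 CPM, so these 3 lymphoid lists were higher in the members of both libraries. Lists summed for dendritic cells to 53.4 and 11.0 CPM, for plasma cells to 38.7 and 48.8 CPM, and for fibroblasts and endothelium to 221 and 283 CPM. The 6 neutrophil markers summed to 204 and 33.0 CPM with S100a8, Csf3r, Retnlg and Cxcr2 at 0. Nearly all of that was Il1r2, a decoy receptor for interleukin 1 that regulatory T cells can also carry, at 455 and 152 CPM in members with an activation sum of 8 or more. The part of these markers in the results was not tested.

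Most members lay close to the lower limit of the rule. In the vehicle library 52 members had an activation sum of exactly 2, and in the RP-6306 library 106 did, while 133 and 253 cells of the same gate had a sum of 1 and 330 and 606 had a sum of 0. A sum of 2 to 3 was found in 80 vehicle members, which was 50.6% (95% Clopper-Pearson interval 42.6 to 58.7), and in 145 RP-6306 members, 73.2% (66.5 to 79.3). A sum of 8 or more was found in 51 vehicle members, 32.3% (25.1 to 40.2), and in 21 RP-6306 members, 10.6% (6.69 to 15.8). The members are thus a range of the activation sum and not a separated cell class, and the vehicle members held more cells at its upper end.

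Icos was the gene that most often admitted a member on its own. It was the only 1 of the 4 genes detected in 49 vehicle members (31.0%) and in 94 RP-6306 members (47.5%). Ctla4 gave 52.7% of the activation UMIs in vehicle and 42.5% in RP-6306, Icos 33.4% and 48.5%, Tnfrsf4 9.65% and 6.53%, and Pdcd1 4.23% and 2.46%. All 4 genes were detected together in 11 and 7 members. Exactly 1 of the 4 genes was detected in 56 and 121 members. The levels of these 4 genes were fixed by the rule and are given as a description: in vehicle and RP-6306 members Icos was at 727 and 619.7 CPM, Ctla4 at 1145 and 543 CPM, Tnfrsf4 at 209.9 and 83.4 CPM, and Pdcd1 at 92.0 and 31.5 CPM. In the B cell gate, which should lack them, Icos was at 14.0 and 8.0 CPM and Ctla4 at 21.6 and 22 CPM.

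The share of members among conventional CD4 T cells was lower in the RP-6306 library. Since the rule reads single UMIs and the vehicle cells were deeper, each cell was first thinned at random to 1500 UMIs, and the whole rule was applied again. Members were then 64 of 327 conventional CD4 T cells in vehicle, 19.6% (15.4 to 24.3), and 72 of 596 in RP-6306, 12.1% (9.57 to 15). Without thinning they were 158 of 621, 25.4% (22.1 to 29.1), and 198 of 1057, 18.7% (16.4 to 21.2). The counting intervals of the libraries did not overlap in either count. Thinning also loses Foxp3 UMIs, so cells with Foxp3 can enter the thinned gate as conventional. Cells with Foxp3 were 28 in vehicle and 12 in RP-6306 before thinning, and 10 and 5 after it. Members with an Ikzf2 or Il2ra UMI were 34.8% and 17.2% before thinning, and 42.2% and 16.7% after it. The effect of this on the thinned shares was not tested. By activation sum the pattern was uneven. After thinning, a sum of 2 to 3 was found in 10.7% (7.57 to 14.6) and 10.2% (7.92 to 13.0) of conventional CD4 T cells. A sum of 4 to 7 was found in 4.89% (2.82 to 7.82) and 0.839% (0.273 to 1.95), and a sum of 8 or more in 3.98% (2.13 to 6.70) and 1.01% (0.370 to 2.18). Without thinning, a sum of 4 to 7 was found in 4.35% (2.88 to 6.26) and 3.03% (2.08 to 4.25), and a sum of 8 or more in 8.21% (6.18 to 10.7) and 1.99% (1.23 to 3.02). The intervals were apart at 4 to 7 only with thinning and at 8 or more only without it, and they overlapped at 2 to 3. Among cells without an Ikzf2 or Il2ra UMI, members were 12.7% (9.08 to 17.0) and 10.5% (8.09 to 13.3), with overlapping intervals.

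The larger denominator moved with this share. The conventional CD4 T gate held 10.6% (9.58 to 11.8) of vehicle T cells after thinning and 15.6% (14.5 to 16.8) of RP-6306 T cells. As a share of all T cells, members were 2.08% (1.61 to 2.65) and 1.89% (1.48 to 2.37) after thinning, and 4.12% (3.52 to 4.80) and 4.17% (3.62 to 4.77) without it, with overlapping intervals in both counts. CD8 T gate cells with an activation sum of at least 2 were 1.47% (1.07 to 1.96) and 1.78% (1.39 to 2.26) of T cells after thinning.

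**Figure D1:**
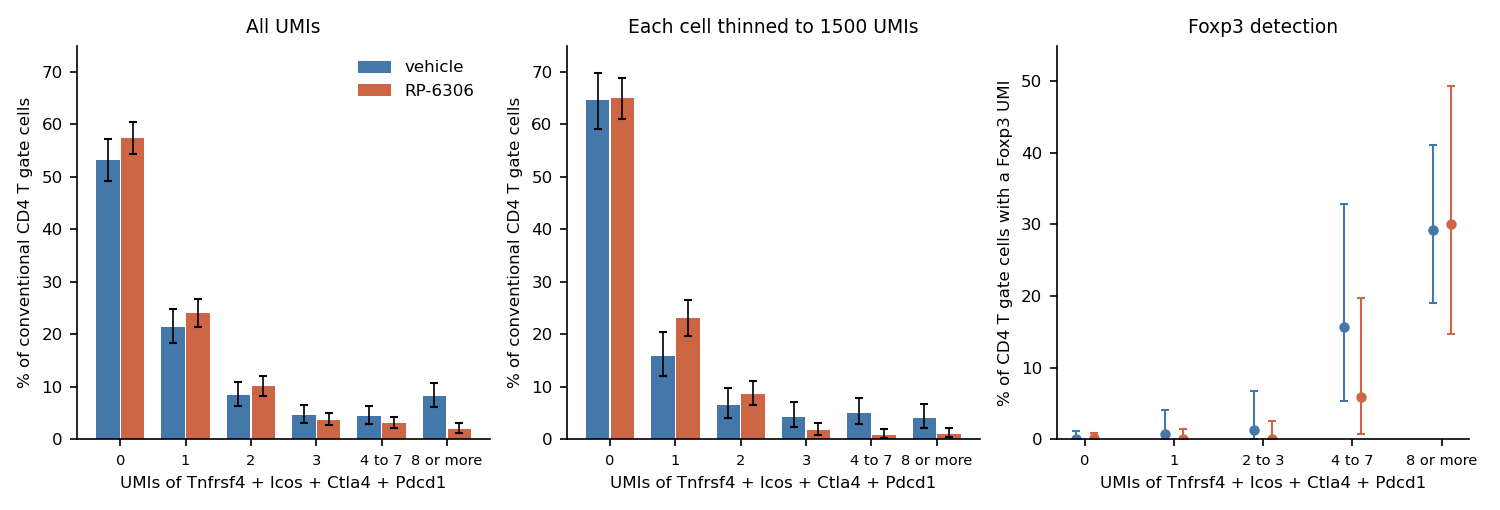
Share of conventional CD4 T gate cells (y axis, percent) at each activation sum (x axis, UMIs) with all UMIs (left) and after thinning (middle), and share of CD4 T gate cells with a Foxp3 UMI (right), vehicle in blue and RP-6306 in orange, with 95% Clopper-Pearson intervals. Vehicle shares exceed RP-6306 shares at sums of 4 or more. At 8 or more they are 8.21% against 1.99% with all UMIs and 3.98% against 1.01% after thinning. The intervals overlap at 4 to 7 with all UMIs and at 8 or more after thinning. Foxp3 is found in 29.2% and 30.0% of CD4 T gate cells with sums of 8 or more and in 0% and 0.165% of those with a sum of 0.

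The marker check did not bear out the name of these cells at either end. Members with a sum of 2 to 3, most members in both libraries, lay close to cells with a sum of 0 in the naive and regulatory T cell lists given below. These lists thus did not set them apart as activated. Rora, Itgb1, Ahnak and S100a4, also given below, were higher in them than at a sum of 0 in both libraries. Those genes were among the ones chosen as highest in the members, so this is no separate support. In the CD4 T gate, which is the same rule with Foxp3 allowed and no activation sum, Foxp3 was detected in 21 of 72 vehicle CD4 T gate cells with an activation sum of 8 or more, 29.2% (19.0 to 41.1), and in 9 of 30 in RP-6306, 30% (14.7 to 49.4). It was detected in 1 of 81 and 0 of 145 cells with a sum of 2 to 3. Cells with Foxp3 held few UMIs of it, 1.64 on average in 28 vehicle cells and 1.92 in 12 RP-6306 cells, and 17 and 6 of them had exactly 1. At this depth a count of 0 therefore did not separate cells that lack Foxp3 from cells in which it was missed. Among members with a sum of 8 or more, 68.6% in vehicle and 66.7% in RP-6306 carried a UMI of Ikzf2 (Helios, a transcription factor abundant in regulatory T cells) or Il2ra (CD25, the high-affinity chain of the interleukin 2 receptor). The same held for 13.8% and 6.21% of members with a sum of 2 to 3, and for 3.94% and 1.65% of cells with a sum of 0. The upper part of the members is called by its rule from here on, high-sum members, and was not taken to be conventional.

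Genes linked to regulatory T cells followed the same range. Thinned to 1500 UMIs, 18 genes of a regulatory T cell list gave a median of 9 UMIs per cell (quartiles 2.5 to 12.5) in 51 vehicle high-sum members and 5 (1 to 12) in 21 of RP-6306. Cells with Foxp3 gave 13 and 14. In members with a sum of 2 to 3 the median was 0 in both libraries, as in cells with a sum of 0. Ikzf2 (chr1:69531214-69687245, mm10, minus strand) stood at 119 and 14.3 CPM in members with a sum of 2 to 3, at 455 and 279.7 CPM at 4 to 7, and at 1299 and 1124 CPM at 8 or more, against 3021 and 2464 CPM in cells with Foxp3. Il2ra stood at 40.9 and 23.8, at 193 and 106, and at 773 and 455 CPM over the same steps. Tnfrsf9 (4-1BB, a costimulatory receptor) went from 32.7 and 28.6 CPM over 171 and 77.2 to 1043 and 464 CPM, and Gzmb (granzyme B, a protease of cytotoxic granules that tumour regulatory T cells also make) from 4.09 and 14.3 CPM over 79.7 and 106 to 863 and 428 CPM. Each of these 4 genes was thus highest in the high-sum members in both libraries. In the B cell gate Ikzf2 was at 27.2 and 7.33 CPM and Gzmb at 21.5 and 2.71 CPM.

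Naive and resting T cell genes ran the other way. A list of 20 such genes gave a median of 16 UMIs per 1500 in vehicle and 18 in RP-6306 cells with a sum of 0, 14 and 18 in members with a sum of 2 to 3, 6 and 16 at 4 to 7, and 3 and 5 at 8 or more, next to 4 and 3.5 in cells with Foxp3. The members with low sums were thus close to cells without activation UMIs in this list. Tcf7 and Lef1, transcription factors of naive and memory T cells, were at 499 and 669 CPM and at 921 and 1178 CPM in members with a sum of 2 to 3, and at 99.5 and 214 CPM and 128 and 187 CPM in high-sum members. S1pr1, the receptor that lets T cells leave lymphoid tissue, was at 299 and 399.9 CPM and at 52.1 and 125 CPM in the same cells.

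**Figure D2:**
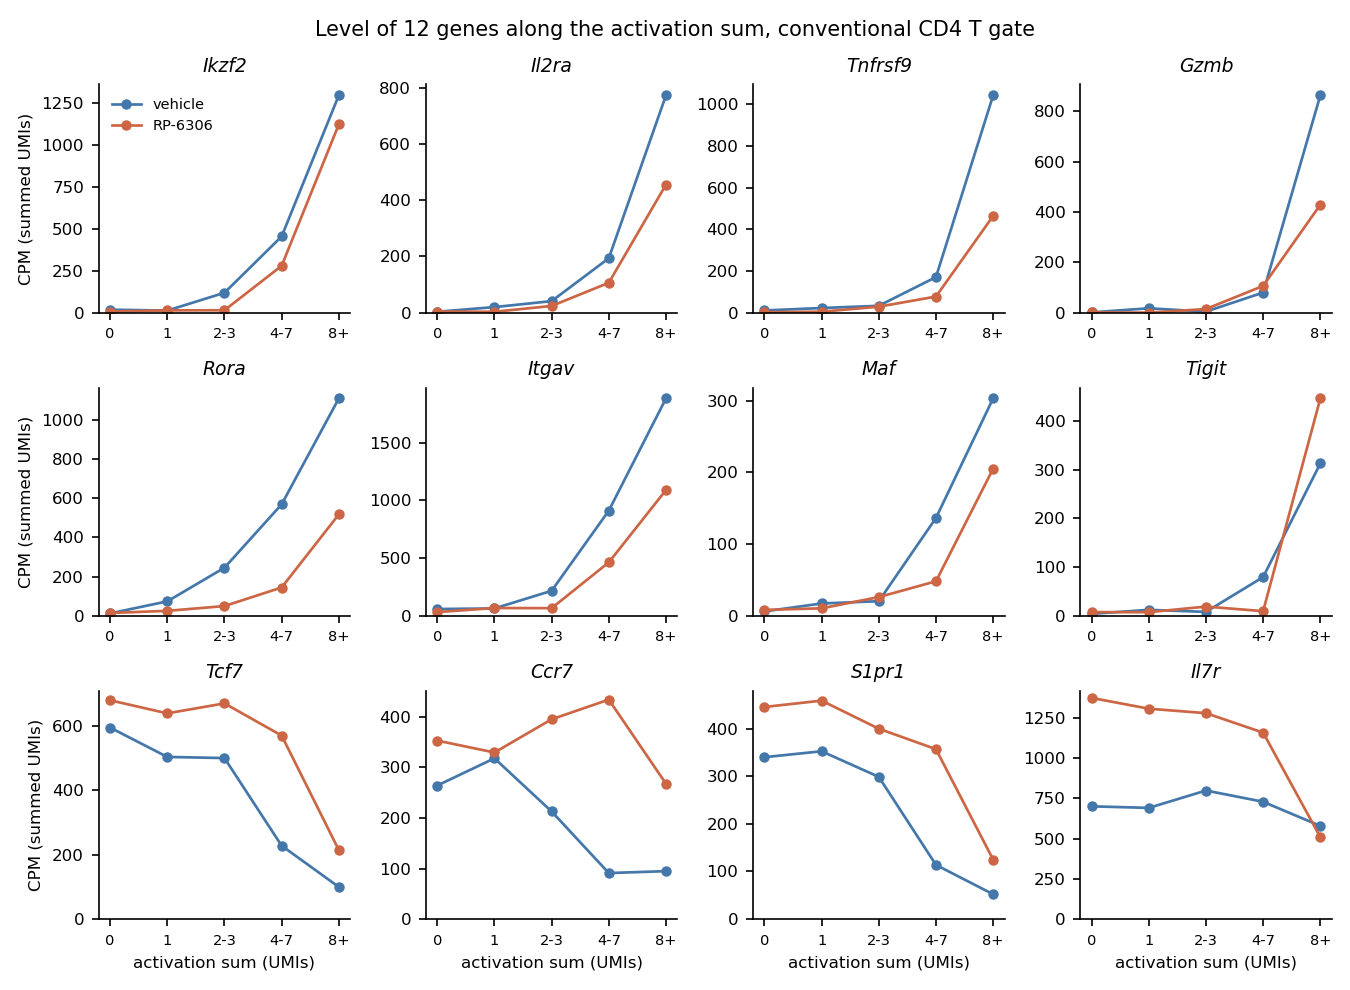
Level of 12 genes (y axis, CPM of summed UMIs) in conventional CD4 T gate cells at each activation sum (x axis, UMIs), vehicle in blue and RP-6306 in orange, 1 library each and no error drawn. Ikzf2, Il2ra, Tnfrsf9, Gzmb, Rora, Itgav, Maf and Tigit are highest at sums of 8 or more in both libraries, while Tcf7 and S1pr1 are lowest there.

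Just inside and just outside the limit the naive list medians were within 1 UMI of each other, while Ikzf2 and Rora were higher just inside it in vehicle. Cells with a sum of 1 gave a naive list median of 15 and 18 UMIs per 1500, and members with a sum of 2 gave 14.5 and 18. Ikzf2 was at 12.3 and 13.5 CPM at a sum of 1 and at 114 and 9.71 CPM at a sum of 2. In vehicle, 4 of 52 members with a sum of 2 carried an Ikzf2 or Il2ra UMI, against 4 of 133 cells with a sum of 1. The 114 CPM thus came from at most 4 cells. Rora was at 73.9 and 25.6 CPM and at 158 and 25.9 CPM, and Itgav at 64.1 and 67.7 CPM and at 107 and 77.7 CPM.

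The members were then compared as a whole with the cells of the same gate and library that had no activation UMI. Of 4389 genes with enough UMIs, 71 (1.62%) were at least 2-fold higher in the members of both libraries, and 0 (0.0%) were at least 2-fold lower in both. Counted in each library on its own, 286 (6.52%) were at least 2-fold higher and 60 (1.37%) at least 2-fold lower in vehicle, and 88 (2.01%) and 10 (0.228%) in RP-6306. Ikzf2 led with 631 against 17.7 CPM in vehicle, a log2 ratio of 5.08 (4.46 to 5.95), and 253 against 6.38 CPM in RP-6306, 5.11 (4.39 to 6.40). The others among the 15 highest were Nkg7, S100a4, Rora, Itgav, Abcb1a, Maf, Sytl3, Eea1, Pglyrp1, Nt5e, Itgb1, Rab11fip1, Ahnak and Coro2a. Leaving out every cell with an Ikzf2 or Il2ra UMI, on both sides, left 11 genes at least 2-fold higher in both libraries. Fewer cells and UMIs were then summed, and 3819 genes were tested. By any amount, 38.4% of the genes tested were higher and 24.6% lower in the members of both libraries.

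Several of these genes are known from T cells that have entered tissue. Itgav, the alpha V integrin chain, was at 976 against 59.3 CPM in vehicle (log2 ratio 4.02, 3.64 to 4.46) and at 311 against 32.6 CPM in RP-6306 (3.22, 2.81 to 3.73). Rora, a nuclear receptor of tissue and type 17 helper cells, was at 633 against 12.5 CPM (5.56, 4.84 to 6.63) and at 148 against 14.7 CPM (3.25, 2.66 to 4.06). S100a4, a calcium-binding protein of effector and memory T cells, gave log2 ratios of 3.30 (2.80 to 3.92) and 4.68 (3.90 to 6.18), and Itgb1, the beta 1 integrin chain, 2.50 (2.05 to 3.01) and 2.11 (1.65 to 2.64). Maf, a transcription factor of interleukin 10 and follicular helper programmes, gave 4.37 (3.39 to 6.07) and 2.75 (1.95 to 3.92). Nt5e (CD73), an ectoenzyme that makes adenosine, was at 123 against 22.9 CPM (2.38, 1.72 to 3.20) and at 73.9 against 12.1 CPM (2.51, 1.81 to 3.46). Of the cell sets by activation sum it was highest at sums of 4 to 7, with 307 and 222 CPM, and not in the high-sum members, with 166 and 53.5 CPM.

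The lowest genes by the smaller of both ratios were Atp1b1, Atp8b4, Fanci, Hs3st3b1, Prkd3, Msra, Ppp1r13b, Ly6c1, Utp14a and Hexim1. Atp1b1, a sodium pump subunit, was at 40.5 against 106 CPM (-1.37, -2.13 to -0.71) in vehicle and at 77.1 against 150 CPM (-0.95, -1.44 to -0.51) in RP-6306. Ly6c1, a surface protein of naive and central memory T cells, was at 35.0 against 110.2 CPM (-1.63, -2.44 to -0.94) and at 102 against 165 CPM (-0.68, -1.10 to -0.29). Of 18 regulatory T cell genes only 7 passed the filter of 50 UMIs, which a gene rare at a sum of 0 passes through the members alone, so no count over them is given. Of 20 naive genes 19 were lower in each library, with medians of -0.93 and -0.28, where 44.1% and 42.1% of all genes tested were lower by any amount. Glycolysis and nutrient uptake genes were higher, 13 and 11 of 13, with medians of 0.97 and 0.53, where 55.9% and 57.9% of all genes tested were higher by any amount. The median over all genes tested was 0.06 in both libraries.

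Helper lineage transcripts were sparse, and no helper type could be assigned. Il2 had 0 UMIs in the members of both libraries, which allows up to 5.52 CPM in vehicle and 4.72 CPM in RP-6306 (3 UMIs). Ifng, the cytokine of type 1 helper cells, had 15 and 12 UMIs in 12 and 4 cells, and their transcription factor Tbx21 had 14 and 2 UMIs in 11 and 1 cells. Il21 had 2 and 1 UMIs and Cxcr5 4 and 7, both known as genes of follicular helper cells, and Bcl6, the transcription factor of those cells, was at 25.8 and 39.3 CPM, below the 43.3 and 48.8 CPM of the B cell gate. Gata3, the type 2 factor, was at 64.4 and 39.3 CPM, against 25 and 28.7 CPM at a sum of 0. Il13 had 54 UMIs in 3 vehicle cells, 68.5% of them in 1 cell, and 2 UMIs in RP-6306. Cd40lg, the contact signal of helper cells, was at 71.8 and 81.8 CPM, against 78.0 and 88.7 CPM at a sum of 0.

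Proliferation genes were rare and uneven. Mki67 had 53 UMIs in 23 vehicle members and 81 UMIs in 10 RP-6306 members, and 1 RP-6306 cell held 53.1% of that library's UMIs of the gene. Top2a had 59 UMIs in 37 cells and 72 UMIs in 24 cells, of which 1 RP-6306 cell held 34.7%. Among members with a sum of 2 to 3, Mki67 was at 53.2 CPM in vehicle and 7.14 CPM in RP-6306, and Top2a at 85.9 and 40.5 CPM. Pkmyt1, the target of the compound, had 7 UMIs in 6 cells of each library, and Wee1, the related kinase, 5 and 3 UMIs. Their levels were too low to compare at this depth.

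Between the treatments, RP-6306 members had more transcripts of naive and resting genes and fewer of effector and regulatory T cell genes. Of 3970 genes tested, 326 (8.21%) were at least 1.5-fold higher and 414 (10.4%) at least 1.5-fold lower in RP-6306, counted by size alone. The median log2 ratio over all of them was 0.02. Vehicle members held more high-sum cells, as given above, and ribosomal protein genes took 12.4% of vehicle and 16.4% of RP-6306 member UMIs. Some genes are therefore also given for the members with a sum of 2 to 3 and for the cells with a sum of 0, and the others for all members only. Members with a sum of 2 to 3 are a subset of the members that chose the named genes, so a ratio of the same sign there is no separate support. In bulk sums over cells, a change in which cells are present and a change of RNA within cells cannot be told apart.

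The 12 highest genes in RP-6306 members were Gpr18, Ndrg3, Slc49a4, Ppp1r21, Ly6c1, Socs3, Cog3, Slc15a2, Ccr7, Ifngr2, Fgf13 and Itm2a. Gpr18, a G protein-coupled receptor of lymphocytes (chr14:121911253-121915781, mm10, minus strand), was at 46.0 CPM in vehicle and 160.4 CPM in RP-6306 members, a log2 ratio of 1.78 (1.16 to 2.49), with 1.39 (0.66 to 2.23) at a sum of 2 to 3 and 0.69 (0.33 to 1.07) at a sum of 0. Ccr7, the chemokine receptor that guides T cells to lymph nodes, was at 147 and 379 CPM, 1.36 (0.99 to 1.75), with 0.89 (0.44 to 1.37) and 0.42 (0.20 to 0.64) in the same cell sets. Ifngr2, which signals for bound interferon gamma, was at 160.2 and 412 CPM, 1.36 (1.01 to 1.73), with 0.93 (0.52 to 1.35) and 0.71 (0.52 to 0.92). Socs3, a brake on cytokine signalling, was at 23.9 and 69.2 CPM, 1.49 (0.61 to 2.55), with 1.93 (0.62 to 3.70) and 0.81 (0.33 to 1.34). Their median log2 ratio was 1.44 in all members and 0.98 in the subset with a sum of 2 to 3, where all 12 were higher. In cells with a sum of 0, 10 of the 12 were higher, with a median of 0.70, where 57.0% of all genes tested were higher. The exceptions were Cog3 at -0.04 (-0.53 to 0.47) and Fgf13 at -0.32 (-0.56 to -0.09).

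The 12 lowest genes were Lilr4b, Plac8, Ptpn13, Pcyt1a, Ttn, Lilrb4a, Frmd5, Furin, Lgals3, Lamc1, Tnfsf8 and Mir155hg. Lilr4b and Lilrb4a are neighbouring, similar receptor genes on chr10:51480632-51486703 and chr10:51490956-51496611 (mm10, plus strand), so how reads were split between them is uncertain. Lilr4b was at 129 CPM in vehicle and 11.0 CPM in RP-6306 members, a log2 ratio of -3.43 (-4.92 to -2.43), and Lilrb4a at 162 and 26.7 CPM, -2.56 (-3.44 to -1.84). Furin, a protease that matures cytokines such as TGF-beta, was at 105 and 18.9 CPM, -2.41 (-3.51 to -1.56). Tnfsf8 (CD30 ligand) was at 249 and 53.5 CPM, -2.20 (-2.80 to -1.66), and Lgals3 (galectin 3) at 92.0 and 17.3 CPM, -2.35 (-3.50 to -1.45). Frmd5 lay in 19 vehicle and 3 RP-6306 cells. In the subset with a sum of 2 to 3 all 12 were lower, with intervals below 0 for 7 of them. Outside the members, at a sum of 0, 9 of 12 were lower, with intervals below 0 for 2, where 43.0% of all genes tested were lower. There Lilr4b and Lilrb4a rested on 6 and 6 and on 3 and 7 UMIs, and Furin gave -0.38 (-1.39 to 0.61), Tnfsf8 -0.30 (-0.90 to 0.29) and Lgals3 -1.58 (-2.60 to -0.78).

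**Figure D3:**
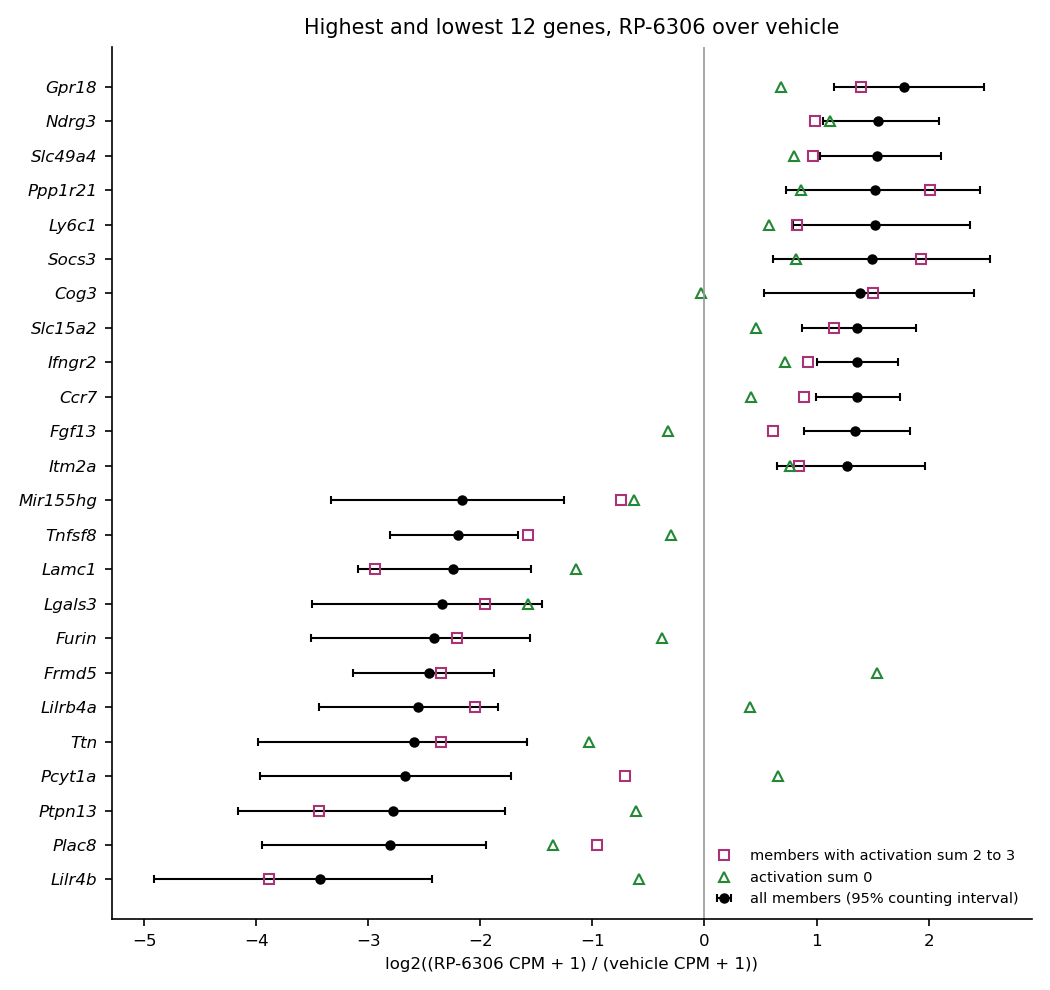
Log2 ratio of RP-6306 over vehicle (x axis, from CPM + 1) for the 12 highest and 12 lowest genes (y axis), with all members as filled circles with 95% counting intervals, members with an activation sum of 2 to 3 as squares and cells with a sum of 0 as triangles, 1 library per treatment. The squares are a subset of the members that chose the 24 genes, so their shared sign is no separate support, and 10 of the 12 highest and 9 of the 12 lowest have that sign at a sum of 0.

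The naive gene list had the highest median of the lists with at least 5 measured genes. Of its 19 measured genes 18 were higher in RP-6306 members, with a median log2 ratio of 0.78. Of all genes tested 51.8% were higher by any amount and 48.2% lower. Past 1.5-fold were 12 of the 18, where 8.21% of all genes tested were at least 1.5-fold higher. The median was 0.37 in members with a sum of 2 to 3, with 16 of 18 higher, where 55.5% of all genes were higher and 44.5% lower. It was 0.57 in members without Ikzf2 or Il2ra UMIs, with 17 of 19 higher against 54.5%. In those cells 240 of 2890 genes tested (8.3%) were at least 1.5-fold higher and 246 (8.51%) at least 1.5-fold lower. In cells with a sum of 0 it was 0.21, with 15 of 20 genes higher against 57.0% of all genes, whose median was 0.05. Klf2, a transcription factor that keeps T cells quiescent and in circulation, gave 1.26 (0.95 to 1.60), 1.01 (0.62 to 1.41) and 0.66 (0.50 to 0.83) in all members, at a sum of 2 to 3 and at a sum of 0. Il7r, the receptor for the survival cytokine interleukin 7, was at 701 and 1123 CPM in the members, 0.68 (0.50 to 0.86). It was at 699.9 and 1373 CPM at a sum of 0, where the log2 ratio was 0.97 (0.85 to 1.10). The Il7r difference was thus at least as large in cells outside the members.

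Regulators of RNA decay and quiescence were higher with a smaller median. Of 12 genes 11 were higher in RP-6306 members, where 51.8% of all genes tested were higher. The median was 0.17 in all members, 0.33 at a sum of 2 to 3 and 0.35 at a sum of 0. Btg2, an antiproliferative factor that speeds mRNA decay, was at 272 and 583 CPM in the members (1.10, 0.82 to 1.38) and at 337 and 684 CPM at a sum of 0 (1.02, 0.84 to 1.20). Zfp36, which destabilises cytokine mRNAs, gave 0.89 (0.47 to 1.33) in the members and 1.24 (0.95 to 1.55) at a sum of 0. Btg2, Zfp36 and Socs3 also belong to a list of genes that tissue dissociation induces. That list was higher in 13 of 18 measured genes of the members and 14 of 18 at a sum of 0, with medians of 0.21 and 0.29. Of all genes tested 51.8% and 57.0% were higher in these cell sets. The list summed to 5072 and 6121 CPM in the members and to 4987 and 6380.4 CPM at a sum of 0. Its part in these differences was not tested. Fosb, an early response factor of the same list, was lower, at 86.5 and 37.7 CPM.

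Effector and exhaustion transcription factors were lower without exception among those measured. All 13 were lower in RP-6306 members, with a median log2 ratio of -1.15, and 8 were past 1.5-fold. Of all genes tested 48.2% were lower by any amount and 10.4% at least 1.5-fold lower. With no filter on low counts the median was -1.07 over 16 genes of the list. Rbpj, the nuclear partner of Notch, was at 252 and 58.2 CPM (-2.10, -2.68 to -1.58), Runx2 at 254 and 66.1 CPM (-1.93, -2.48 to -1.44), Irf4, a factor that reads T cell receptor strength, at 79.2 and 23.6 CPM (-1.70, -2.70 to -0.87), and Id2, a factor of effector cells, at 374 and 124 CPM (-1.58, -1.98 to -1.21). Tox, a factor of exhausted T cells, differed least, with 760.3 and 736 CPM (-0.05, -0.24 to 0.15). At a sum of 2 to 3 Rbpj was still lower (-1.27, -2.39 to -0.24), while the intervals of Irf4, Id2 and Runx2 held 0. At a sum of 0, 4 of 7 measured genes of the list were lower, with a median of -0.11, where 43.0% of all genes were lower.

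Regulatory T cell genes were lower in 10 of 11, with a median of -1.62, where 48.2% of all genes tested were lower. The filter adds the UMIs of both libraries, so a gene high in vehicle can pass it through vehicle alone. With no filter on low counts the median was -1.54 over 18 genes of the list. Ikzf2 was at 631 and 253 CPM (-1.31, -1.60 to -1.04), Il2ra at 349.8 and 113 CPM (-1.62, -2.04 to -1.23), Tnfrsf9 at 447 and 113 CPM (-1.97, -2.38 to -1.60) and Gzmb at 349.8 and 102 CPM (-1.76, -2.20 to -1.36). These genes lay mostly in high-sum members, of which vehicle had 51 and RP-6306 had 21. Within high-sum members all 8 measured genes of the list were lower in RP-6306, with a median of -0.89, where 48.0% of all genes were lower. The 21 RP-6306 cells held 112061 UMIs and 1 of them 27386. Without that cell 6 of 8 genes were lower and 2 higher, with a median of -0.51. In those cells 188 of 1249 genes (15.1%) were at least 1.5-fold higher and 165 (13.2%) at least 1.5-fold lower.

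Type 1 helper genes were lower in 10 of 10, with a median of -1.23, where 48.2% of all genes tested were lower. The same limit of the filter holds here, and with no filter on low counts the median was -1.25 over 19 genes. In members without Ikzf2 or Il2ra UMIs 4 of 5 were lower with a median of -0.14, where 45.5% of all genes were lower. Il2rb, the beta chain of the interleukin 2 receptor, was at 151 and 36.2 CPM (-2.03, -2.80 to -1.38), Il12rb2 at 97.6 and 36.2 CPM (-1.41, -2.21 to -0.70) and the chemokine receptor Cxcr6 at 86.5 and 25.2 CPM (-1.74, -2.70 to -0.94). The type 2 helper list had the lowest median of the lists with at least 5 measured genes, -1.95 over 5 genes. Among them Il13 had 54 and 2 UMIs and the chemokine receptor Ccr8 63 and 18, so both passed the filter through vehicle. With no filter on low counts the median of that list was -1.63 over 11 genes. Ccl5, a chemokine of effector cells, was at 339 and 288 CPM (-0.23, -0.54 to 0.07), and 1 RP-6306 cell held 50.8% of its UMIs in that library. Cytotoxic genes were lower in 5 of 5 measured, with a median of -0.70, where 48.2% of all genes tested were lower. With no filter on low counts the median was -0.70 over 15 genes. Lower levels were not seen in members with low sums. At a sum of 2 to 3 only 3 genes were measured, too few to describe the list. Of them, Nkg7, a granule membrane protein, gave a log2 ratio of 0.34 and Srgn, the granule proteoglycan, 0.04, both with intervals that held 0. Thinned to 1500 UMIs, the list's mean per cell was 1.45 in vehicle and 1.95 in RP-6306 at a sum of 2 to 3, and 0.887 and 1.25 at a sum of 0, against 3.61 and 2.33 in all members. The medians at a sum of 2 to 3 were 1 and 1, and 66.2% and 68.3% of those cells had any UMI of the list. Among inhibitory receptors 3 of 6 were lower and 3 higher, against 48.2% and 51.8% of all genes tested. Havcr2 (TIM-3) was at 127 and 31.5 CPM (-1.98, -2.81 to -1.28) and Btla at 95.7 and 156 CPM (0.70, 0.20 to 1.21). Lag3 had 23 and 9 UMIs, and Tigit was at 138 and 92.8 CPM (-0.57, -1.09 to -0.06).

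Genes induced by T cell receptor and NF-kB signals were lower by less. Early response genes were lower in 12 of 15 with a median of -0.40, and NF-kB genes in 7 of 10 with a median of -0.42. Of all genes tested 48.2% were lower. Nfkb1, the p50 subunit precursor, was at 968 and 505 CPM (-0.94, -1.14 to -0.74) and kept this at a sum of 2 to 3 (-0.90, -1.21 to -0.59), while at a sum of 0 it was at 453 and 417 CPM (-0.12, -0.30 to 0.06). The T cell receptor signalling machinery had 14 of 24 genes higher and 10 lower, with a median of 0.04, where 51.8% of all genes tested were higher. Glycolysis genes were lower in 13 of 14, with a median of -0.45, against 48.2% of all genes tested. Pgk1, which makes ATP in glycolysis, was at 374 and 167 CPM (-1.16, -1.52 to -0.82), with -0.96 (-1.64 to -0.29) at a sum of 2 to 3 and -0.13 (-0.48 to 0.21) at a sum of 0. At a sum of 2 to 3 the glycolysis list had 4 genes higher and 4 lower, with a median of -0.05.

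Interferon and antigen presentation lists had medians near 0, with single genes in both directions. Of 26 interferon-stimulated genes 14 were higher and 12 lower in RP-6306 members, with a median of 0.09, where cells with 2 or more UMIs of Ifit1 and Ifit3 had been left out by the rule. Of all genes tested 51.8% were higher and 48.2% lower by any amount, and 8.21% were at least 1.5-fold higher and 10.4% at least 1.5-fold lower. These shares also stand beside the MHC class I counts below. Of the 26 genes 5 were at least 1.5-fold higher, such as Xaf1, an antagonist of apoptosis inhibitors, at 25.8 and 59.8 CPM (1.18, 0.30 to 2.21), Irf9, a subunit of the interferon-activated ISGF3 complex, at 46.0 and 84.9 CPM (0.87, 0.17 to 1.63), and Slfn1, a schlafen protein, at 118 and 195 CPM (0.72, 0.28 to 1.19). The 1 gene at least 1.5-fold lower was Zbp1, a sensor of Z-form nucleic acids, at 93.9 and 50.3 CPM (-0.89, -1.58 to -0.23). MHC class I genes had 8 of 17 higher and a median of -0.04. Past 1.5-fold, 2 of them were lower, H2-Q6 at 156 and 83.4 CPM (-0.90, -1.43 to -0.40) and H2-Q7 at 394 and 261 CPM (-0.59, -0.89 to -0.29), both nonclassical class I molecules whose reads near-identical relatives may share. The 1 higher was Erap1, which trims peptides for class I, at 70.0 and 115 CPM (0.71, 0.13 to 1.32). The genes named here were chosen after their values were seen. The interferon and MHC class I lists had medians of -0.12 and 0.04 at a sum of 0.

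**Figure D4:**
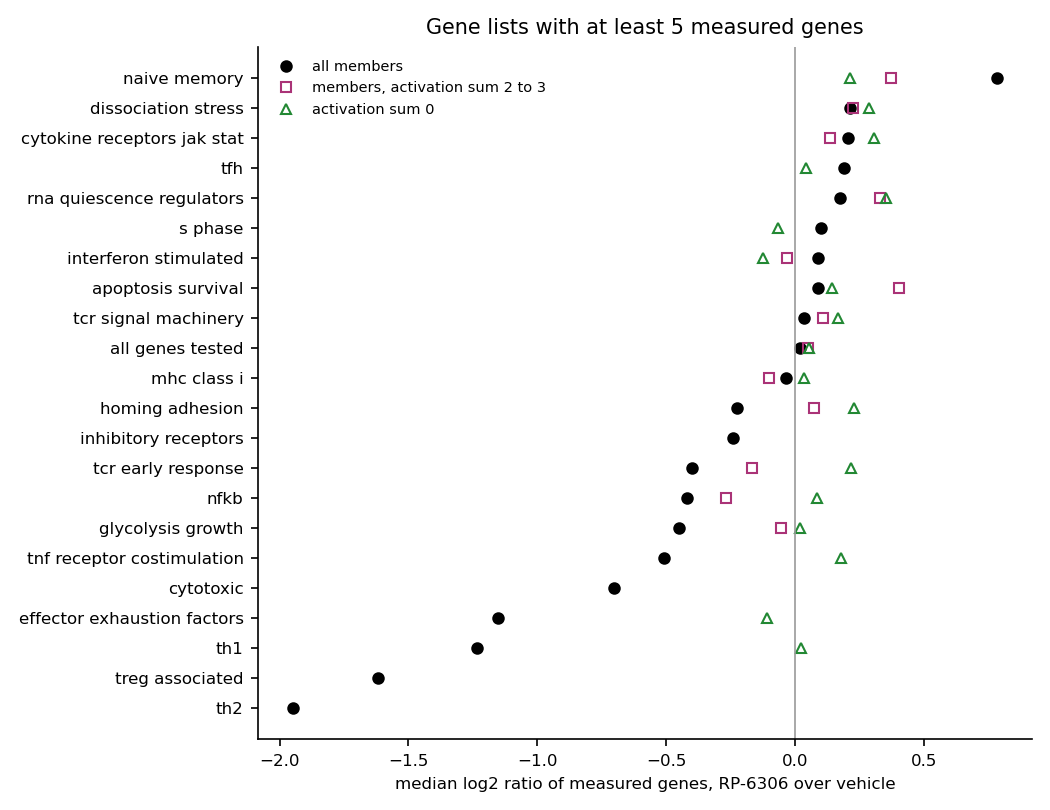
Median log2 ratio of RP-6306 over vehicle (x axis) for each gene list with at least 5 measured genes (y axis), for all members (filled circles), members with an activation sum of 2 to 3 (squares) and cells with a sum of 0 (triangles), 1 library per treatment. The naive list stands at 0.78, 0.37 and 0.21, and the effector and exhaustion list at -1.15 in all members and -0.11 at a sum of 0.

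The members with a sum of 2 to 3 were also compared on their own. Of 2317 genes tested in them 202 (8.72%) were at least 1.5-fold higher and 122 (5.27%) at least 1.5-fold lower in RP-6306, against 317 of 5752 (5.51%) and 236 (4.1%) at a sum of 0. Rora (chr9:68653786-69388246, mm10, plus strand) was at 246 and 50 CPM at a sum of 2 to 3, a log2 ratio of -2.27 (-3.09 to -1.56), and at 12.5 and 14.7 CPM at a sum of 0 (0.22, -0.83 to 1.38). After thinning it was detected in 16.9% (9.31 to 27.1) of vehicle and 5.63% (2.46 to 10.8) of RP-6306 members with a sum of 2 to 3, against 1.40% and 0.333% of B cell gate cells. Itgb1 was at 282 and 59.5 CPM at a sum of 2 to 3 (-2.23, -2.97 to -1.57) and at 52.0 and 35.7 CPM at a sum of 0 (-0.53, -1.12 to 0.04). Ahnak, a large scaffold protein abundant in effector and memory T cells, was lower in both, at 422 and 95.2 CPM (-2.13, -2.71 to -1.61) and at 148 and 55.5 CPM (-1.40, -1.81 to -1.02). S100a4 was lower in both as well, at 131 and 47.6 CPM (-1.44, -2.34 to -0.61) and at 34.3 and 5.11 CPM (-2.53, -4.07 to -1.61). Whether the ratios differed between these cell sets was not tested.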

How the data were processed

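The deposited files hold raw counts of UMIs per gene and barcode, made by the authors from SeekOne DD droplet libraries, 1 per treatment. The submitters' processing notes list mm10 and Cell Ranger 2.1.1, with roles not given in the sources used here. Cells were kept from 500 UMIs and 300 genes up, with mitochondrial genes at no more than 15% of UMIs. The T cell gate asked for a CD3 transcript, the B cell gate for B cell genes without CD3, and the conventional CD4 T gate was the members' rule without the activation sum. Counts were summed over cells per library and scaled to CPM. Log2 ratios are of CPM + 1, for genes with at least 50 UMIs over both sides, with the genes of the rule left out. Their 95% intervals are exact binomial intervals of the ratio of counts, without the added 1. Lists are described only where at least 5 genes were measured. No test between treatments was run, since each group has 1 library, and cells are not replicates. PCR and capture make molecules of 1 cell dependent, so intervals cover counting error only. For shares, each cell was thinned to 1500 UMIs, leaving 14165 and 14215 cells. Scrublet (scanpy 1.11.5) marked 3 and 0 cells as doublets, which was taken as a failed call, so no doublets were removed, and leaving out the top 6% of scores was an alternative. Named genes were the 12 highest and 12 lowest ratios between treatments (at least 50 CPM where higher, no cell with over 20% of the UMIs there, tumour gate level under 5 times the member level), the 15 highest and 10 lowest against cells with a sum of 0, up to 4 genes per list, and fixed markers. Tcf7, Lef1, S1pr1 and Il1r2 were added after their values were seen. Results of some genes on the lists are not reported here. The members and lists were chosen with earlier results of these data known. The code was tested on simulated data. Analyses used Python 3.11.15, numpy 2.4.6, scipy 1.17.1 and pandas 2.3.3. Gene coordinates are from GENCODE, which held 32235 of 32285 gene IDs.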

Additional observations from a re-analysis of the deposited data

Results flagged for a closer look

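For 6 named genes the ratio between treatments had opposite signs in the members and in cells with an activation sum of 0, with both counting intervals clear of 0. Fgf13 gave 1.34 in the members and -0.32 at a sum of 0 on the log2 scale. Gadd45b, a stress-induced growth arrest gene, gave -1.09 and 0.83. Nfkbia, the inhibitor of NF-kB, gave -0.54 and 0.43. Srgn, the proteoglycan of secretory granules, gave -0.58 and 0.35. Sytl3, a synaptotagmin-like protein of vesicle traffic, gave -2.03 and 1.94, where the value at a sum of 0 rests on 2.08 and 10.9 CPM. Zap70, the kinase next to the T cell receptor, gave -1.04 and 0.66. At a sum of 2 to 3 the values were 0.61 for Fgf13, -0.07 for Gadd45b, -0.32 for Nfkbia, 0.04 for Srgn, -0.67 for Sytl3 and -0.70 for Zap70. These differences between cell sets were not tested.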

How the results depend on the processing

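The member share was lower in RP-6306 under each setting run, while its size moved and the libraries were close under some settings. It was 25.4% in vehicle and 18.7% in RP-6306 without thinning, 15.4% and 5.76% thinned to 1000 UMIs, 13.2% and 3.52% with a sum of at least 3, and 35.5% and 35.1% with a sum of at least 1. The vehicle share was 12.7% without cells with Ikzf2 or Il2ra UMIs and 10.7% for sums of 2 to 3. Counts of genes past 1.5-fold moved with the filter: 770 higher and 921 lower with at least 20 UMIs, 151 and 167 with at least 100, 3126 and 3710 with no filter, and 214 and 198 with members thinned to 1500 UMIs. Counts were 202 higher and 122 lower at a sum of 2 to 3, 214 lower at 2 to 7 and 246 lower without cells with Ikzf2 or Il2ra UMIs. Genes 2-fold higher against a sum of 0 were 34 with at least 100 UMIs, 613 with no filter, 27 with cells thinned and 11 without cells with Ikzf2 or Il2ra UMIs, and 400 were 2-fold lower with no filter.

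Of 325 list medians under alternatives 305 were counted as close, 8 as moved and 12 as reversed. A list with a main median under 0.1 in size was not counted as reversed, though its sign could change. Survival genes, at 0.089, gave -0.19 without the top 6% of Scrublet scores and -0.16 without the highest cell of each gene. They gave -0.13 with at least 20 UMIs and with no filter. Interferon genes, at 0.091, gave -0.031 at sums of 2 to 3, -0.021 at 2 to 7 and -0.0047 without the highest cell. The median of TNF receptor and costimulation genes, -0.51, was -1.12 at sums of at least 3, -1.41 with at least 100 UMIs and -1.13 after thinning. Type 1 helper genes, at -1.23, gave -0.14 without cells with Ikzf2 or Il2ra UMIs, -0.30 at sums of 2 to 7, -0.51 with at least 100 UMIs and -0.44 after thinning, and naive genes gave 0.37 at sums of 2 to 3. Inhibitory receptors reversed to 0.013 at sums of at least 3 and to 0.089 with at least 100 UMIs and with no filter. Homing genes reversed to 0.0095 at sums of at least 1, 0.084 without cells with Ikzf2 or Il2ra UMIs, 0.072 at sums of 2 to 3, 0.081 at 2 to 7 and 0.16 after thinning. Cytokine receptors reversed to -0.077 with at least 20 UMIs and with no filter, follicular helper genes to -0.074 with no filter, and S phase genes to -0.017 with the mean of per-cell CPM. Of 1748 values of named genes 1664 stayed close and 80 moved, among them 16 of 73 without cells with Ikzf2 or Il2ra UMIs, 17 of 104 at sums of at least 3 and 12 of 54 at sums of 2 to 3. The other 4 reversed: Serpinb9 to 0.12 at sums of at least 3, and Nkg7 to 0.34, Pkm to 0.078 and Srgn to 0.044 at sums of 2 to 3. The cause was not tested. Sums of 2 to 3 and of 2 to 7, and leaving out the deepest high-sum cell, were chosen as settings after seeing the data.

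No paired analysis was possible because each group has 1 library. A list with under 5 measured genes under a setting gave no value. Transcripts with few UMIs, such as cytokines and helper lineage factors, could not be compared at this depth.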

Other observations

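Of 13 measured receptors for homing and adhesion, 4 were higher and 9 lower in RP-6306 members, with a median log2 ratio of -0.23, whose sign changed in 5 of the settings tried. Of all genes tested 51.8% were higher and 48.2% lower. Cd44, a hyaluronan receptor of activated and memory T cells, was at 295 and 113 CPM (-1.37, -1.80 to -0.97), and it was also lower at a sum of 2 to 3 (-1.40, -2.30 to -0.56) and at a sum of 0 (-1.01, -1.50 to -0.56). Ccr7, which directs T cells to lymph nodes, was higher in all of these cell sets. Ccr8, a chemokine receptor of tumour regulatory and type 2 helper cells, was at 116 and 28.3 CPM (-2.00, -2.88 to -1.26) in 32 vehicle and 10 RP-6306 members. Areg, the growth factor amphiregulin, was at 136 and 34.6 CPM (-1.95, -2.73 to -1.27), in 20 and 12 members, and had an interval around 0 at a sum of 2 to 3 (-0.10, -1.90 to 1.85).

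Survival genes were mixed, with 6 of 12 higher, where 51.8% of all genes tested were higher. Their median was 0.09 beside a mean of -0.16, of the other sign. Tnfsf11 (RANK ligand) was at 116 and 33.0 CPM (-1.78, -2.60 to -1.08) and, at a sum of 2 to 3, rested on 12 and 2 UMIs. Follicular helper genes were higher in 3 of 6, against 51.8% of all genes tested, with a median of 0.19 and a mean of -0.04. Slamf6, a receptor of follicular helper and stem-like T cells, was at 77.3 and 118 CPM (0.60, 0.05 to 1.19), and Izumo1r (folate receptor 4) at 55.2 and 80.2 CPM (0.53, -0.14 to 1.24). Cytokine receptor and JAK-STAT genes were higher in 11 of 21, with a median of 0.20, and in 15 of 19 with a median of 0.31 at a sum of 0. Of all genes tested 51.8% and 57.0% were higher. Socs1, a brake on interferon signalling, gave 0.92 (0.29 to 1.60) in the members and 0.99 (0.49 to 1.54) at a sum of 0. Cish, a brake on interleukin 2 signalling, was at 92.0 and 39.3 CPM (-1.21, -1.98 to -0.51).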
